A study of Mus musculus with 9 samples.

Results

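The windows described here were the shortest of the GpC table, those that spanned 1500 bp or less on chromosomes 1 to 19 and held a value in all 9 libraries. They numbered 3135, which was 0.399% of 786533 autosomal windows with complete values and came from 833294 deposited windows. A further 248 autosomal windows of that length lacked a value in at least 1 library and were left out. They were set against 240087 autosomal windows of 2500 to 3100 bp, called reference windows here.

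Chromatin accessibility was measured by NOMe-seq in female mouse embryonic stem cells (mESCs) from FVB/NJ dams crossed to CAST/EiJ sires. The 9 libraries comprised undifferentiated mESCs at day 0, cells carrying the non-silencing hairpin Nons at days 4, 5, 6 and 7 of undirected differentiation, and cells carrying a hairpin against Smarcc1 on the same 4 days. Hairpins were delivered by virus on day 2 and transduced cells were selected with puromycin from day 3, so that Nons and knockdown cells shared transduction and selection while day 0 cells had neither. There was 1 library per condition and day with no replicates, the reads of both alleles were merged, and neither read depth nor Smarcc1 level nor any cell marker can be read from these files.

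In NOMe-seq a GpC methyltransferase marks cytosines that follow a guanine wherever DNA is not wrapped by a nucleosome or covered by a protein, and bisulfite sequencing reads the marks. More GpC methylation means more accessible DNA, a state typical of active and CpG-rich promoters. Smarcc1 is a core subunit of the BAF complex, which slides and evicts nucleosomes. By the name of the deposited table a window holds 200 read positions, so it is short where positions are dense. Informative positions are GpC cytosines not followed by G, because a CpG may carry the cell's own methylation.

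Short windows were dense in such positions by sequence alone. A median of 215 informative positions lay in a short window on both strands of the genome, against 224 in a reference window, and only 2 short windows and 37 reference windows held fewer than 200. Per 100 bp this came to a median of 15.2 informative positions in short windows and 8.15 in reference windows. As the counts per window were alike, this difference follows mostly from the lengths by which the sets were picked. The sequences of the extremes show what such windows are made of, each as the 150-base stretch with the most informative positions on mm10, plus strand, with every GpC dinucleotide in capitals. The shortest window, of 854 bp, lay in a coding exon of Kmt2d, which encodes a histone H3 lysine 4 methyltransferase and is on the minus strand. Its stretch is chr15:98845255-98845404 and held 66 informative positions, 33 GpC and 0 CpG.
Kmt2d: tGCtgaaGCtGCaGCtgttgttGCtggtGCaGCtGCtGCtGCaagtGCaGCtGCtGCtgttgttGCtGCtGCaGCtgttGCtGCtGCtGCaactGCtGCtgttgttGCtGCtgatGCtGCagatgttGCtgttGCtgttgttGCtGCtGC
The shortest window with a gene start site, of 980 bp, held the start of Mocs3, an enzyme of molybdenum cofactor synthesis. Its stretch, chr2:168230816-168230965, had 50 informative positions and 20 CpG in a sequence of 79.3% GC.
Mocs3: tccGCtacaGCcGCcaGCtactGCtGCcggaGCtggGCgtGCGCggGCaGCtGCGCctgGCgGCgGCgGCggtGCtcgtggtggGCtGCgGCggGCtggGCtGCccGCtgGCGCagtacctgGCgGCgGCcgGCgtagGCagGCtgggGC
The shortest window without coding sequence, of 987 bp, was in an intron of Rnf182, a ubiquitin ligase gene. Its stretch, chr13:43663084-43663233, had 42 informative positions and 1 CpG.
Rnf182: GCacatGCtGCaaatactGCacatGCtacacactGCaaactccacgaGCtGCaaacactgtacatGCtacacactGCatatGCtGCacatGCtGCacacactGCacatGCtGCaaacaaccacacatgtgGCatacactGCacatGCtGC
For comparison, the nearest reference window before the Kmt2d window, chr15:98818490-98821019, lay outside genes. Its densest stretch, chr15:98819925-98820074, reached 23 informative positions.
Reference: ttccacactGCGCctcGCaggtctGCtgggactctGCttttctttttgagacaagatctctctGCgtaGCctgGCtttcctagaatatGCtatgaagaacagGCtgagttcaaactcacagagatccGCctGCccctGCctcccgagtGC
The Kmt2d and Rnf182 stretches were thus dense in GpC with almost no CpG, whereas the Mocs3 stretch was dense in both.

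Across the set, median GC content was 56.5% in short windows and 42.4% in reference windows. The CpG observed/expected ratio, which is the number of CpG over that predicted by the C and G content, had a median of 0.261 in short and 0.177 in reference windows. A ratio above 0.6, which is common in CpG islands, was found in 394 short windows (12.6%) and 737 reference windows (0.307%). Repeats masked in the genome made up a median of 5.25% of a short window and 24.1% of a reference window. An uninterrupted run of 4 CAG units on either strand, a motif that holds a GpC every 3 bases, occurred in 153 short windows (4.88%), 3770 reference windows (1.57%) and 1.62% of all autosomal windows. Windows with a CpG ratio above 0.6 were thus a minority of short windows, and those with such a CAG run were fewer still. How GpC density was divided among kinds of sequence was not tested.

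Short windows lay mostly in genes and above all on coding exons. In order of priority, a window was assigned to a gene start site, a coding exon, another exon, an intron or intergenic sequence. Start sites accounted for 343 short windows (10.9%) against 7656 reference windows (3.19%), and coding exons without a start site for 1852 (59.1%) against 34058 (14.2%). Introns held 554 short windows (17.7%) and 33.7% of reference windows, and intergenic sequence held 213 (6.79%) and 43.5%. The remaining 173 short windows (5.52%) and 5.46% of reference windows were on non-coding exons. Within coding-exon windows a median of 32.8% of the bases was coding in short and 5.78% in reference windows. Short windows were also unevenly spread over chromosomes. They ranged from 0.0876% of the windows of chromosome 3 (42 windows) to 0.691% of those of chromosome 11 (302 windows), and chromosome 2 held the largest number (335).

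**Figure D1:**
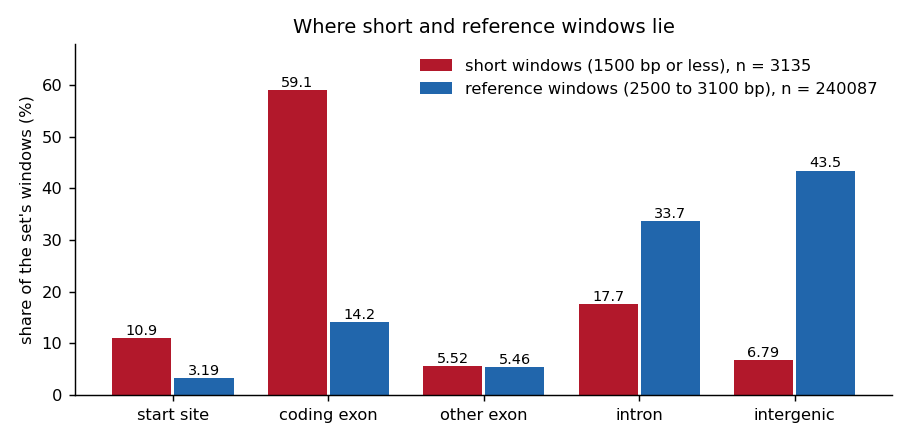
Share of windows (y axis, percent of the set) in each place (x axis) for 3135 short windows and 240087 reference windows; each window was counted once. Coding exons held 59.1% of short and 14.2% of reference windows, and intergenic sequence 6.79% and 43.5%.

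Coding sequence of 1655 genes, 7.95% of 20807 protein-coding genes on the autosomes, reached into 2119 short windows (67.6%). Most genes had a single such window (1292 genes) and 12 genes had 5 or more. These 12 were picked after their counts were seen. Plec, which encodes the cytoskeletal linker plectin, had 10. Bsn, a scaffold of presynaptic active zones, and Crocc, which encodes the ciliary rootlet protein rootletin, had 7 each. Anks1, the histone demethylase gene Kdm4b and Kmt2d had 6 each. The histone H3 lysine 79 methyltransferase gene Dot1l, the non-muscle myosin gene Myh9, Apc2, Bahcc1, Gse1 and Map1s had 5 each. Coding parts of exons that reached into these windows were measured at full length, also where they ran beyond a window. The longest was 6642 bp for Bsn, 6213 bp for Plec and 4990 bp for Apc2. It was only 239 bp for Crocc and 197 bp for Kdm4b.

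Start sites of 386 genes lay in short windows, 1.16% of 33294 autosomal genes. Of these, 301 were protein-coding (1.45% of 20730) and 85 were lncRNA genes (0.677% of 12564). Reference windows held 21.2% of protein-coding and 30.7% of lncRNA starts. The sets differ greatly in size, because short windows were 0.399% of autosomal windows and reference windows were 240087 of 786533. Of 20 gene classes, 7 had a start site in a short window, with 12 genes in all. At the 1.45% share of all protein-coding genes a small class can easily hold none, and no class was tested against that share. The Zfp zinc-finger genes had 5 (Zfp367, Zfp469, Zfp646, Zfp668 and Zfp692, 1.31% of 383), and the Fox genes had 2 of 41 (Foxb1 and Foxf1). The other homeobox genes had 1 of 146 (Lhx5), the Sox genes 1 of 18 (Sox18) and the Wnt, Fgf and Bmp ligand genes 1 of 49 (Bmp7). Replication-dependent histone genes had 1 of 67 (Hist1h1c) and potassium channel genes 1 of 79 (Kcnc4). No start site of the Hox cluster (38 genes), T-box (16), Gata and Zic (9), clustered protocadherin (57), cytosolic ribosomal protein (79), respiratory chain (34), semaphorin and Eph (41), olfactory receptor (1078), vomeronasal receptor (326), BAF subunit (28), Polycomb and DNA methylation (34), pluripotency (24) or imprinted genes (44) was in a short window.

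Coding sequence reached into short windows for 7.95% of all protein-coding genes, and start sites lay in them for 1.45%. These shares are not alike, because a gene has a single counted start site but may have coding sequence in many windows. Several gene classes lay above the coding share. Such overlap was found for 4 of 18 Sox genes (22.2%; Sox1, Sox4, Sox8 and Sox18), 7 of 41 Fox genes (17.1%), 10 of 79 potassium channel genes (12.7%), 6 of 49 Wnt, Fgf and Bmp ligand genes (12.2%) and 15 of 146 other homeobox genes (10.3%). The Zfp genes (34 of 383, 8.88%) and the Hox genes (3 of 39, 7.69%; Hoxa10, Hoxb5 and Hoxd3) were close to the share of all protein-coding genes. Among chromatin genes, 4 of 28 BAF subunit genes (14.3%; Bcl7b, Bicra, Smarcb1 and Smarcd2) and 5 of 34 Polycomb and DNA methylation genes (14.7%; Cbx6, Dnmt1, Dnmt3a, Phc2 and Tet3) had coding sequence in a short window. The count was 0 for 16 T-box genes and for 9 Gata and Zic genes, which are developmental regulators too, and for 1087 olfactory receptor, 326 vomeronasal receptor, 57 protocadherin and 24 pluripotency genes. The semaphorin, ephrin and Eph receptor genes (4 of 41, 9.76%) and the imprinted genes (4 of 37, 10.8%) were above the share of all protein-coding genes. Low but not 0 were cytosolic ribosomal protein genes (1 of 79, 1.27%), replication-dependent histone genes (1 of 67, 1.49%) and respiratory chain genes (1 of 35, 2.86%). These counts are small, and no class was tested against the others.

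Over all places, short windows were about as accessible as reference windows. Their median GpC methylation was 11.4% in undifferentiated cells. Nons libraries gave 14.8%, 21.6%, 10.5% and 6.45% for days 4, 5, 6 and 7, and knockdown libraries gave 11.7%, 19.5%, 12.3% and 7.61%. For reference windows these medians were 11.3% before differentiation, 13.9%, 21.2%, 10.3% and 6.45% with Nons, and 11.1%, 20.2%, 11.9% and 7.22% with the knockdown. Both sets were therefore highest at day 5 and lowest at day 7 of either arm, and library medians differed far more than the sets did. The difference of medians, short minus reference, averaged 0.25 ± 0.46 percentage points (SD, n = 9 libraries), and was positive in 7 libraries, 0 in 1 and negative in 1. It did not pass an exact permutation test that flips the sign of each library's difference, two-sided (p = 0.15, adjusted p = 0.16 over 4 such comparisons). It did pass with means in place of medians, where it was 1.38 points, and among the 235 shortest members alone, kept by a stricter length limit, where it was 1.43 points (exact permutation p = 0.0039 for both). It also passed without the knockdown library of day 5, at 0.37 points (exact permutation p = 0.016). Libraries of a single time course are not biological replicates, so these p-values measure only how steady a difference was across the 9 libraries.

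Start-site windows separated the sets. Short start-site windows had a median of 19.05% in undifferentiated cells. On days 4 to 7 the medians were 23.0%, 33.5%, 19.05% and 11.1% with Nons and 17.6%, 28.4%, 19.6% and 12.1% with the knockdown. Reference start-site windows stood at 13.3%, then at 16.4%, 25.7%, 12.4% and 7.63% with Nons, and at 12.9%, 23.2%, 13.9% and 8.47% with the knockdown. Every library had the higher median in short windows, by 3.48 points (Nons day 7) to 7.76 points (Nons day 5). The mean difference was 5.49 ± 1.42 points (SD, n = 9 libraries), with an exact sign-flip permutation p = 0.0039, the smallest that 9 libraries can give (adjusted p = 0.0078). Chromosome by chromosome, the short median was the higher on 17 to 19 of 19 autosomes depending on the library. Short start-site windows had a median length of 1419 bp and reference ones 2735 bp, so the latter took in more sequence around the start. The part of this in the difference was not tested.

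Windows without a start site did not share this. Short windows of this kind ranged in median from 6.07% (Nons day 7) to 20.7% (Nons day 5) and the reference windows from 6.45% to 21.1% in the same libraries. The mean difference was -0.25 ± 0.48 points (SD, n = 9 libraries; lower in 6 of 9, exact permutation p = 0.16), and it turned positive with means (0.51) and for the windows under the stricter length limit (1.03). Of the coding-exon windows among them, 80 short and 0 reference windows had their centre within 1 kb of a start site. With start-site windows defined by that distance instead, the mean difference of the others was -0.39 ± 0.54 points (exact permutation p = 0.051). By place, short windows were lower than reference windows in introns by -0.80 ± 0.81 points (SD; 9 of 9 libraries, exact permutation p = 0.0039, adjusted p = 0.016 over 4 places) and on coding exons by -0.50 ± 0.48 points (8 of 9 libraries, adjusted exact permutation p = 0.039). Differences on other exons (-0.16 ± 0.75 points) and in intergenic sequence (-0.19 ± 0.57 points) did not pass the test. Each short window was also compared with the nearest reference window on either side within 100 kb, which was possible for 3125 windows. The median of these local differences averaged -0.55 ± 0.48 points (SD, n = 9 libraries), negative in all 9 (exact permutation p = 0.0039, adjusted p = 0.0078). The mean local difference was positive instead, at 0.60 points, as was the median under the stricter length limit, at 0.73 points.

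**Figure D2:**
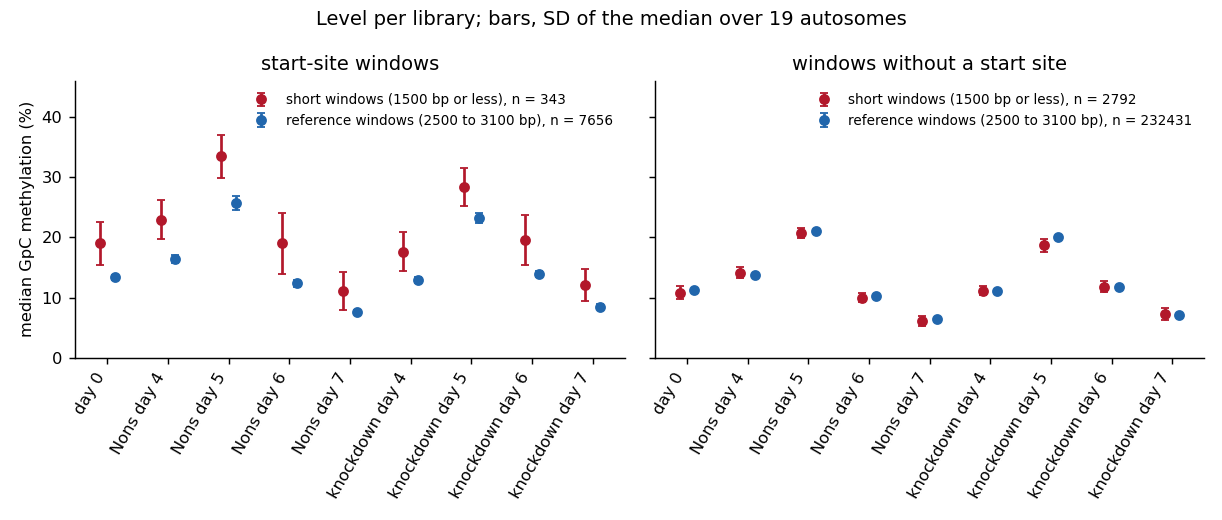
Median GpC methylation (y axis, percent) in each library (x axis) of short and reference windows, with (left) and without (right) a gene start site; bars are the SD of the median over 19 autosomes within a library. Short start-site windows lay above reference start-site windows in all 9 libraries, whereas the medians of the other windows nearly coincided.

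The medians hide a wider distribution. The interquartile range of short windows was 1.18 to 1.53 times that of reference windows over the 9 libraries. More short windows were at 0% in 8 of 9 libraries, for example 4.72% against 1.13% at day 0 and 10.1% against 4.50% in the knockdown at day 7, and fewer in Nons at day 5 (0.0957% against 0.116%). At the other end, 167 short windows (5.33%) had a mean level over the libraries above 25%, against 881 reference windows (0.367%), and 109 of the 167 held a start site. Across windows, values of 2 libraries correlated with a median Pearson r of 0.263 over the 36 pairs in short windows and 0.0984 in reference windows. Among start-site windows alone the order was 0.256 and 0.295. These are correlations over windows that share a library and differ in CpG content, and are given as a description. Since the depth behind a window is unknown, the part of sampling in the wider spread was not tested.

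CpG content moved with the level in both sets. In short start-site windows the mean of the 9 library medians was 13.3% at a CpG observed/expected ratio of 0.2 or less (28 windows), 14.3% at 0.2 to 0.4 (57), 20.6% at 0.4 to 0.6 (56), 23.0% at 0.6 to 0.8 (111) and 25.5% above 0.8 (91). The same steps in reference start-site windows gave 12.4%, 14.8%, 20.5%, 22.3% and 23.9%. The sets differed in how many start-site windows had a high ratio. A ratio above 0.6 was found in 58.9% of short and 7.05% of reference start-site windows. Within the 5 steps the difference, short minus reference, ranged from -0.50 to 1.62 points, and none passed the sign-flip test (lowest adjusted exact permutation p = 0.21 over 15 comparisons). The SDs over libraries were 1.20 to 3.18 points, so differences of the size found within these steps cannot be told from 0 here. The part of CpG content in the start-site difference was not tested.

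Short windows without a start site followed the same slope. Their mean of library medians was 11.02% at a ratio of 0.2 or less (885 windows), 11.97% at 0.2 to 0.4 (1424), 15.3% at 0.4 to 0.6 (291), 18.6% at 0.6 to 0.8 (132) and 20.9% above 0.8 (60). In the lowest steps, which held most of these windows, they were below reference windows by -1.17 ± 0.76 and -1.17 ± 0.64 points (SD, n = 9 libraries; lower in 9 of 9 for both, adjusted exact permutation p = 0.015). Matched on GC content rather than CpG, short windows were the less accessible set between 50 and 60% GC, but not at start sites of higher GC. At 50 to 55% GC the difference was -1.57 ± 0.98 points without a start site (924 against 2761 windows) and -4.36 ± 1.70 points with one (28 against 550). At 55 to 60% it was -3.49 ± 2.22 points (1428 against 172) and -3.13 ± 1.67 points (112 against 137). All 4 of these differences had the same sign in 9 of 9 libraries (adjusted exact permutation p = 0.0089 over 16 comparisons). Most short start-site windows had more GC than that. At 60 to 65% GC their difference was -0.38 ± 2.67 points (122 against 25 windows; lower in 5 of 9 libraries, adjusted exact permutation p = 0.66). Above 65% it was 6.13 ± 5.25 points, higher in 9 of 9 libraries (adjusted exact permutation p = 0.0089) but with 81 short against only 4 reference windows. Without a start site it was -3.82 ± 3.31 points at 60 to 65% (314 against 16 windows; lower in 8 of 9 libraries, adjusted exact permutation p = 0.016), and a single reference window was left above 65%. Of the start-site windows between 50 and 60% GC, reference windows had the higher median CpG ratio (0.473 against 0.225 at 50 to 55% and 0.610 against 0.422 at 55 to 60%). Above 60% GC the short ones had it (0.691 against 0.610 at 60 to 65% and 0.879 against 0.757 above). Of the windows without a start site between 50 and 60% GC, the ratios were close (0.199 against 0.201, and 0.277 against 0.258). The part of CpG content in these differences was not tested.

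**Figure D3:**
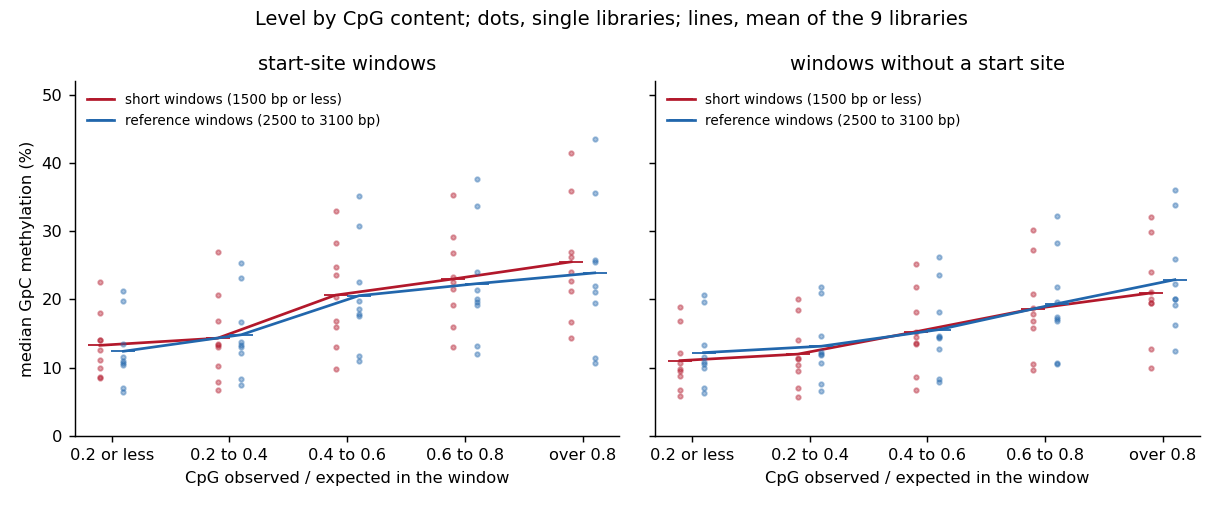
Median GpC methylation (y axis, percent) against the CpG observed/expected ratio of the window (x axis, 5 steps) for windows with (left) and without (right) a start site; dots are the 9 libraries and lines their mean. Both sets rose together, from 13.3% to 25.5% in short and from 12.4% to 23.9% in reference start-site windows.

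Across all lengths the level of start-site windows fell as windows lengthened. The mean of the 9 library medians was 20.4% in short windows, 18.6% above 1500 and up to 2000 bp (5229 windows), 16.9% up to 2500 bp (10424), 14.9% up to 3100 bp (7639), 13.1% up to 4000 bp (3691) and 12.7% above 4000 bp (2233). The median CpG ratio of these windows dropped from 0.659 to 0.135 over the same classes. Windows without a start site stayed between 12.3% and 12.6% in all 6 classes. The length limit itself marked no step. In the 50 bp below it (1154 windows), medians were 11.1% at day 0 and 21.3% in Nons at day 5, and in the 50 bp above it (1677 windows) they were 11.1% and 21.4%.

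**Figure D4:**
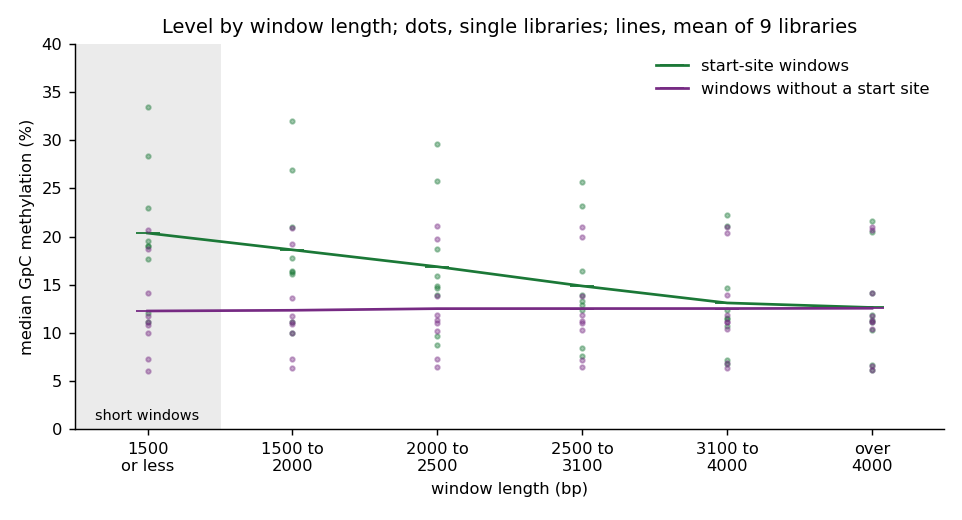
Median GpC methylation (y axis, percent) by window length (x axis, 6 classes in bp) for start-site windows and other windows on the autosomes; dots are the 9 libraries, lines their mean, and the shaded class is the short windows. Start-site windows fell from 20.4% in short windows to 12.7% above 4000 bp, where both kinds met.

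Single windows showed how far members differed among themselves. Among the highest mean levels were those of the start site shared by Zfp367 and the lncRNA gene Gm47513 (mean 44.8%), that of the linker histone gene Hist1h1c (44.4%), that of Fam222a (44.1%) and a coding-exon window of Serbp1, which encodes an RNA-binding protein (43.5%). The Hist1h1c window went from 2.33% in Nons to 79.2% in the knockdown at day 7 and from 65.8% to 42.9% at day 4, with no replicate of either.

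The lowest mean levels were found away from start sites. The window chr4:151316465-151317800 in an intron of Camta1, which encodes a calmodulin-binding transcription activator, had a mean of 4.60% and lay between 1.96% and 7.78% in the 9 libraries. It was followed by a coding-exon window of the kinase gene Mknk2 (5.27%), an intergenic window on chromosome 8 of which 97.9% was repeat-masked (5.53%), an intron window of the lncRNA gene Gm13180 (5.96%) and a coding-exon window of the clathrin adaptor gene Ap2a1 (6.10%). All 5 had a CpG ratio below that of any of the 4 high windows named above, at 0.00965 to 0.263 against 0.693 to 0.916.

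The shortest windows were not a uniform group. The Kmt2d window measured 13.5% at day 0, 6.76%, 10%, 0% and 8.05% with Nons and 17.4%, 13.6%, 6.25% and 3.45% with the knockdown, a mean of 8.78%. The shortest Plec window measured 6.98% at day 0, 17.5%, 21.4%, 77.4% and 4.00% with Nons and 15.8%, 37.3%, 30.4% and 9.38% with the knockdown. Its mean of 24.5% rested largely on Nons day 6. Among the other shortest windows, means were 22.0% for the coding exon of the zinc-finger gene Zfp853, 16.9% for that of Bsn, 11.8% for the Mocs3 start site and 6.23% for the Rnf182 intron. The Mocs3 window, with a CpG ratio of 1.03, was below the median of short start-site windows in 7 of 9 libraries, at 3.03% at day 0 and from 5.77% to 27.8% in Nons.

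Short windows adjoined each other in 260 runs of at least 2 windows, which held 602 of the 3135 windows. The longest runs had 6 windows. The run in Plec, chr15:76173927-76180864, was 87.8% to 100% coding in each window, and the mean of its windows was 13.4% at day 0, 23.2%, 21.6%, 20.7% and 2.98% with Nons and 16.3%, 19.7%, 19.3% and 14.0% with the knockdown. The run over Ppp1r16a, a phosphatase regulatory subunit gene, and the alanine aminotransferase gene Gpt, chr15:76691524-76700180, stood at 5.76% at day 0 and 8.81% to 18.4% in Nons. Its 6 windows had means of 10.5% to 14.9%, including the Gpt start site at 11.96%. A run of 5 windows in Crocc, chr4:141029259-141036246, was the first of several of that length and had window means of 9.51% to 18.7%. Over all their short windows the 12 genes with 5 or more ranged from a mean of 11.3% (Kmt2d) to 16.3% (Bahcc1), near the median of 13.3% for short windows.

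Start-site windows of the gene classes lay on both sides of 22.45%, the median of mean level over all 343 short start-site windows. Mean levels over the 9 libraries were 26.6% for Sox18, a regulator of vessel development, 24.9% for the window of the LIM homeobox gene Lhx5 and the lncRNA gene Gm27199, 22.5% for the ligand gene Bmp7, 22.4% for the forkhead gene Foxb1 and 20.9% for the potassium channel gene Kcnc4. Foxf1 had 12.1% and Zfp469, the lowest of the Zfp genes, 15.1%. Sox18 and Lhx5 were thus above that median, Bmp7 and Foxb1 at it, and Kcnc4, Zfp469 and Foxf1 below it. Counting coding-exon windows as well, the median of window means was 25.8% over 4 Sox windows, 18.8% over 3 Hox windows, 17.9% over 17 windows of other homeobox genes and 17.3% over 7 Fox windows. It was 21.1% over 4 windows of imprinted genes, 13.6% over 45 Zfp windows, 12.7% over 8 Polycomb and DNA methylation windows and 10.98% over 4 BAF subunit windows. The median CpG ratio was highest for Sox (0.886) and lowest for BAF windows (0.245), as the level was among these classes, but in between the orders differed. It was 0.783 for Fox, 0.645 for Hox and 0.529 for other homeobox windows, and nearly equal for Zfp (0.426) and imprinted windows (0.423).

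With Nons, short and reference windows shared the direction of change from day 0 on each day. With the knockdown the directions differed at day 4, at 0.21 points in short and -0.16 points in reference windows. In Nons the median paired change of short windows from day 0 was 3.33, 9.82, -0.56 and -4.37 points on the 4 days in turn, with SDs over autosomes of 1.15 to 1.63 points. The reference values were 2.58, 9.64, -0.93 and -4.67 points. Short start-site windows changed by 3.14, 13.5, -0.41 and -5.94 points, and reference start-site windows by 3.29, 11.8, -0.81 and -5.36 points. All these changes share the day 0 library and carry any difference in overall level between libraries.

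The Smarcc1 knockdown was lower than Nons in short windows on days 4 and 5 and higher on days 6 and 7. The median paired difference, knockdown minus Nons, was -2.82 ± 1.04, -1.94 ± 1.19, 1.78 ± 0.95 and 0.85 ± 0.90 points on days 4, 5, 6 and 7 (SD over 19 autosomes). It was negative on all 19 autosomes on days 4 and 5, on 0 on day 6 and on 3 on day 7. Over the 4 days the mean was -0.53 ± 2.20 points (SD, n = 4 days; exact sign-flip permutation p = 0.62, where 4 pairs cannot go below 0.13), and 0.23 points without day 4. Reference windows had -2.76, -1.02, 1.51 and 0.72 points. The widest gap between the sets was thus at day 5, where short windows exceeded the reference fall by -0.92 points and did so on 14 of 19 autosomes. Over the 4 days the gap averaged -0.15 ± 0.53 points (2 of 4 negative, exact permutation p = 0.88), and 0.11 points without day 5.

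The median differences of days 4 and 5 were further from 0 at start sites than elsewhere, where they were -2.71 and -1.78 points in short windows. In short start-site windows the difference was -4.39 ± 4.02 and -4.60 ± 4.36 points on days 4 and 5 (SD over 19 autosomes), against -3.45 and -2.38 points in reference start-site windows. On days 6 and 7 it was 1.17 and 1.28 points against 1.44 and 0.81. As a log2 ratio of medians, which takes account of the higher level, day 4 was -0.38 in short and -0.34 in reference start-site windows, and day 5 was -0.24 and -0.15. In windows without a start site this ratio was -0.35 in short and -0.32 in reference windows at day 4, and -0.15 and -0.07 at day 5. On this scale, start-site and other windows were thus close at day 4. The gap between the sets over the 4 days was -0.74 ± 1.14 points at start sites (3 of 4 negative, exact permutation p = 0.38) and -0.09 ± 0.48 points elsewhere (1 of 4 negative, exact permutation p = 1.00). The latter was 0.14 points without day 5 and 0.03 points after quantile normalization. Neither was larger than its spread between days.

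**Figure D5:**
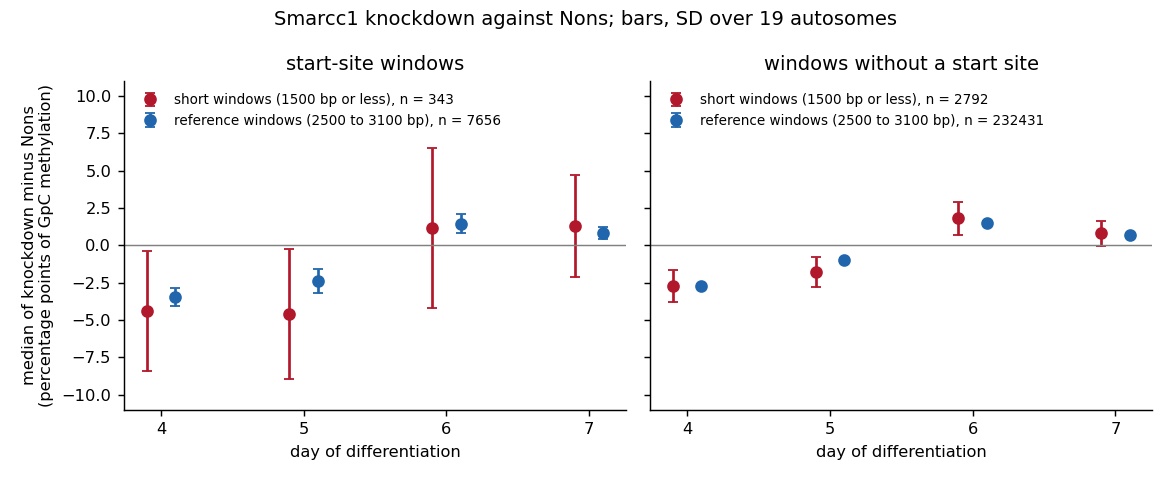
Median over windows of knockdown minus Nons (y axis, percentage points of GpC methylation) by day (x axis) for start-site windows (left) and other windows (right); bars are the SD over 19 autosomes. Both sets were below 0 on days 4 and 5 and above 0 on days 6 and 7, and the bars of short and reference windows overlapped on every day.

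No short window passed a test for an effect of the knockdown shared by the 4 days, which the test treats as repeats. In limma with day as a block and Benjamini-Hochberg adjustment over 829493 autosomal and X windows, 0 of 3135 short windows had an adjusted p below 0.05 and the smallest was 0.995, where 0% of all windows were called. At an unadjusted p below 0.05 there were 89 short windows higher in the knockdown (2.84%, against 1.58% of all windows) and 168 lower (5.36%, against 2.65%). The higher share stood beside the wider spread of short windows in every library, and its part was not tested. A same-sign difference on all 4 days was found in 140 short windows for higher values (4.47%, against 4.95% of all windows) and in 199 for lower values (6.35%, against 6.81%), so steady differences were not more common than in the background.

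Among those steady windows the largest fall was at the Zfp367 and Gm47513 start site, chr13:64152331-64153830, a window exactly at the length limit. It measured 81.8% at day 0, 78.3%, 41.6%, 38.5% and 77.8% with Nons and 24.4%, 36.1%, 18.8% and 5.71% with the knockdown, a mean difference of -37.8 points. The arms were far apart on days 4 and 7 and close on day 5. The next falls were all on coding exons, in the phosphatase gene Dusp2 (-22.8 points), the kinase gene Hunk (-22.6), the reelin receptor gene Lrp8 (-20.7) and the orphan receptor gene Gpr6 (-20.3). Dusp2, chr2:127336255-127337675, had 35.5%, 29.5%, 56.2% and 22.9% with Nons and 10.4%, 12.3%, 26.5% and 3.57% with the knockdown, so that the arms overlapped only through knockdown day 6.

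The largest steady rise was at the start site of Iqsec1, which encodes an exchange factor for Arf GTPases. Its window, chr6:90987581-90989006, measured 27.7%, 55.3%, 0% and 0% with Nons and 51.8%, 60%, 39.0% and 7.14% with the knockdown, a mean difference of 18.8 points. Large rises were also found on coding exons of Apc2 (17.1 points), Dot1l (16.2) and the chondroitin synthesis gene Chpf (15.9). Each of these steady windows was chosen for its difference, none passed the adjusted threshold, and the values describe these libraries only.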

How the data were processed

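Adapters were removed by the authors with trim_galore and reads mapped to mm10 with Bismark, whose extractor and coverage2cytosine scripts gave GpC calls in NOMe-seq mode (Bismark version not given in the sources used here). Each deposited value is a percent of GpC methylation per window. The table's name gives 200 read positions per window, whereas the study's methods describe averaging over fewer positions followed by a normalization, so how the values were averaged and whether they were normalized was not settled. No depth was given, so no counting interval was computed, and library medians were left as deposited. The 9 value columns matched sample titles, which gave groups and days.

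All windows lay inside GRCm38 (mm10) chromosomes. Sequence features came from GRCm38.p6, in the RefSeq release, and genes from GENCODE M21 (34568 protein-coding and lncRNA genes). Start-site windows held a gene's 5′ end. Levels were medians over windows. Differences were tested by exact two-sided sign-flip permutation over libraries or day pairs, and windows by limma 3.58.1 (R 4.3.3). The limma fit was tested on simulated data with changes larger than any steady mean difference named here. Its power for smaller changes was not measured. Windows were named by rule: the 6 shortest, the 5 highest and 5 lowest in mean level, the 5 largest steady rises and falls, the 3 longest runs, and the highest and lowest start-site window of each of 20 gene classes. Of the windows so named, 2 are not reported here. Members, lists and classes were chosen with earlier results of these data known. Alternatives were means, a stricter length limit that kept 235 windows, other reference and promoter definitions, removal of extreme values, quantile normalization, centring, all windows with a value, the arcsine square root scale, no day block and leaving out each library or day.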

Additional observations from a re-analysis of the deposited data

Results flagged for a closer look

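The knockdown difference in short windows changed direction between days. Knockdown minus Nons had a median of -2.82 points at day 4 and -1.94 at day 5, but of 1.78 at day 6 and 0.85 at day 7. Reference windows changed sign between the same days, at -2.76, -1.02, 1.51 and 0.72 points. Over the 4 days the mean in short windows was -0.53 ± 2.20 points (SD, n = 4 days). It was -0.14 ± 0.53 points after centring on the autosomal medians and -0.04 ± 0.46 points after quantile normalization. With 1 library per arm and day, this change of sign was not tested.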

How the results depend on the processing

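Of 119 alternative values, 102 kept their direction and side of the threshold. The higher level of short start-site windows (5.49 points) kept both under every alternative that used 8 or 9 libraries. It was 6.13 points in the 4 Nons and 4.79 in the 4 knockdown libraries, subsets chosen after seeing the data in which p cannot go below 0.13; the local difference was -0.48 and -0.57 points there. Over all places the level difference passed the test with means (1.38 points), the stricter length limit (1.43), windows at 0 or 100% left out (0.48) and every window with a value (0.46). Without a start site it reversed with means (0.51) and the stricter limit (1.03), as did the local difference (0.60 and 0.73). The knockdown gap without start sites reversed under quantile normalization (0.0297).

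Leaving out each library gave 0.17 to 0.37 points over all places, 5.20 to 5.74 at start sites, -0.32 to -0.12 elsewhere and -0.62 to -0.42 locally. Leaving out each day gave -1.30 to 0.23 points for the knockdown and gaps of -0.28 to 0.11 over all places, -1.14 to -0.24 at start sites and -0.23 to 0.14 elsewhere. The cause of these reversals was not tested. No limma alternative called a short window, and their smallest adjusted p ranged from 0.523 to 1.00. Without replicates or depths, single windows have no error estimate.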

Other observations

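The X chromosome, left out of the set by its rule, held 55 windows of 1500 bp or less with complete values, of which 7 held a start site and 26 coding sequence. Their medians were 10.3% before differentiation, 14.0%, 21.3%, 8.70% and 5.00% with Nons and 9.52%, 17.4%, 11.1% and 7.84% with the knockdown on days 4 to 7.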
